A study of Mus musculus with 12 samples.

Results

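The miRNAs described here are the mature products of the mouse miR-375 and miR-7 genes: mmu-mir-375-3p, mmu-mir-375-5p, mmu-mir-7a-5p, mmu-mir-7a-1-3p and mmu-mir-7b-5p. They were chosen by name, as miRNAs enriched in the endocrine cells of the gut epithelium, and no threshold on a measured value was applied. All 5 had a row among the 1978 rows of the deposited count table, and 4 of the 5 had at least 1 count in a library. Small RNA was sequenced from whole colon and whole blood of 6 male C57BL/6 mice, 8 weeks old, in the dextran sulfate sodium (DSS) model of acute colitis. The 3 DSS mice (mice 1, 7 and 9) drank 1.5% wt/vol DSS in water for 7 days, and the 3 control mice (mice 2, 4 and 8) drank the same water without DSS. All mice were sacrificed on day 8, and the study had selected them for sequencing by disease activity. Each tissue therefore had 3 DSS and 3 control libraries, 12 in all, with 15060553 to 20106226 counts per library in colon and 21127134 to 32944792 in blood.

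The sample labels conflict with this grouping. The disease state in the labels marks mice 1, 2 and 4 as colitis and mice 7, 8 and 9 as controls, whereas the figures of the study name mice 1, 7 and 9 as DSS mice, and the latter was used. The labels also name opposite tissues for each library in different fields. The deposited tables and the marker miRNAs settled the tissue: 4 erythroid miRNAs summed to 287255 to 577392 counts scaled to library size (CPM) in the blood libraries and to 1690 to 2571 CPM in the colon libraries, whereas 8 epithelial miRNAs summed to 943 to 1310 CPM and 52900 to 195332 CPM, respectively. With the grouping of the labels, 0 of 542 miRNAs tested in colon were significantly differentially expressed (SDE), against 55 with the grouping used here. The DSS effects of the miR-375 and miR-7 miRNAs under the labels' grouping are given beside those under the grouping used. A miRNA was counted as SDE where the fold exceeded 1.5 and the adjusted p from edgeR (quasi-likelihood test, Benjamini-Hochberg over all miRNAs tested in that comparison) did not exceed 0.05.

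miR-375 was first known from pancreatic islets, where it restrains insulin secretion, and in the gut it is enriched in enteroendocrine cells, the hormone-secreting cells scattered through the epithelium. miR-7 is abundant in endocrine cells and neurons, including islets, and its activity is limited by the circular RNA Cdr1as, which carries many miR-7 sites. A miRNA precursor is a hairpin that is cut into a 5p and a 3p strand, one of which usually accumulates while the other is degraded. The strand that is kept recognises its target mRNAs mainly through the seed, bases 2 to 8 from its 5′ end.

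The mature sequences are shown because the seeds define which of these miRNAs can share targets. The seed is in capitals. The sequence of miR-375-5p was taken from RefSeq and the others from the deposited tables.

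mmu-mir-375-3p: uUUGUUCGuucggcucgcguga
mmu-mir-375-5p: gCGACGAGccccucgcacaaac
mmu-mir-7a-5p: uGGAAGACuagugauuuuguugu
mmu-mir-7b-5p: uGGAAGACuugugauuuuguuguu
mmu-mir-7a-1-3p: cAACAAAUcacagucugccaua
mmu-mir-7a-2-3p: cAACAAGUcccagucugccaca
mmu-mir-7b-3p: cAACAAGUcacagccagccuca

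miR-7a-5p and miR-7b-5p shared the seed GGAAGAC. Over the 23 bases compared they differed by 1 substitution, A10U (the base of miR-7a-5p first, counted from 1 at the 5′ end), and miR-7b-5p was 1 base longer. No other sequence among the 1405 in the deposited tables had that seed, and the seed of miR-375-3p, UUGUUCG, was shared by 0 others. miR-7a-5p is encoded identically by Mir7-1 and Mir7-2, so its counts cannot be divided between these genes. The 3p strands can be, since miR-7a-1-3p differed from miR-7a-2-3p by A7G, A10C and U21C. miR-7a-2-3p and miR-7b-3p were not chosen and are given only as the partner strands.

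The hairpins show where the strands lie, with both mature strands in capitals, from RefSeq on GRCm38.p6.

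Mir375: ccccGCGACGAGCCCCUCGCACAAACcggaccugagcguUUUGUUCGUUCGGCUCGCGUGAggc
Mir7-1: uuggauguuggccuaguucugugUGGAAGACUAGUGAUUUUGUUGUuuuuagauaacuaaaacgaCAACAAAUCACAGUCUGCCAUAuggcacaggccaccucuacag
Mir7-2: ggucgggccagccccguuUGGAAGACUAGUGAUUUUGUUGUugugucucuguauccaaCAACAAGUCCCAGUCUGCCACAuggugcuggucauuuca
Mir7b: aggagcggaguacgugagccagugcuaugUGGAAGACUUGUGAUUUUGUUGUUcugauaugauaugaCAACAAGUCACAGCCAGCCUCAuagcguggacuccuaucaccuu

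Mir375 lies at chr1:74900658-74900721 on the minus strand, between genes, with Cfap65 1350 bp away and Cryba2 7515 bp away. Mir7-1 lies at chr13:58392779-58392886 on the minus strand, inside an intron of Hnrnpk, which is transcribed from the same strand. Mir7-2 lies at chr7:78888277-78888373 on the plus strand, 7481 bp from Aen. Mir7b lies at chr17:56242988-56243098 on the plus strand, 13712 bp from Fem1a.

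In colon, miR-375-3p was the most abundant of these miRNAs and ranked 21 among all rows by its mean level in control mice. miR-7a-5p ranked 40 and miR-7b-5p ranked 76, whereas miR-7a-1-3p ranked 344. In blood the order was different: miR-7a-5p led at rank 37, miR-375-3p followed at rank 157, and miR-7b-5p and miR-7a-1-3p ranked 282 and 349. In the control colon libraries no neighbours in this order overlapped, and in the DSS colon libraries miR-375-3p and miR-7a-5p did. In the control blood libraries miR-7b-5p and miR-7a-1-3p overlapped, and mouse 4 had 28 counts of each. Levels here are CPM with TMM scaling within a tissue, and the mature sequences are 22 to 24 bases long, so no length correction was made. Differences in ligation between sequences can shift levels between miRNAs and were not tested.

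**Figure D1:**
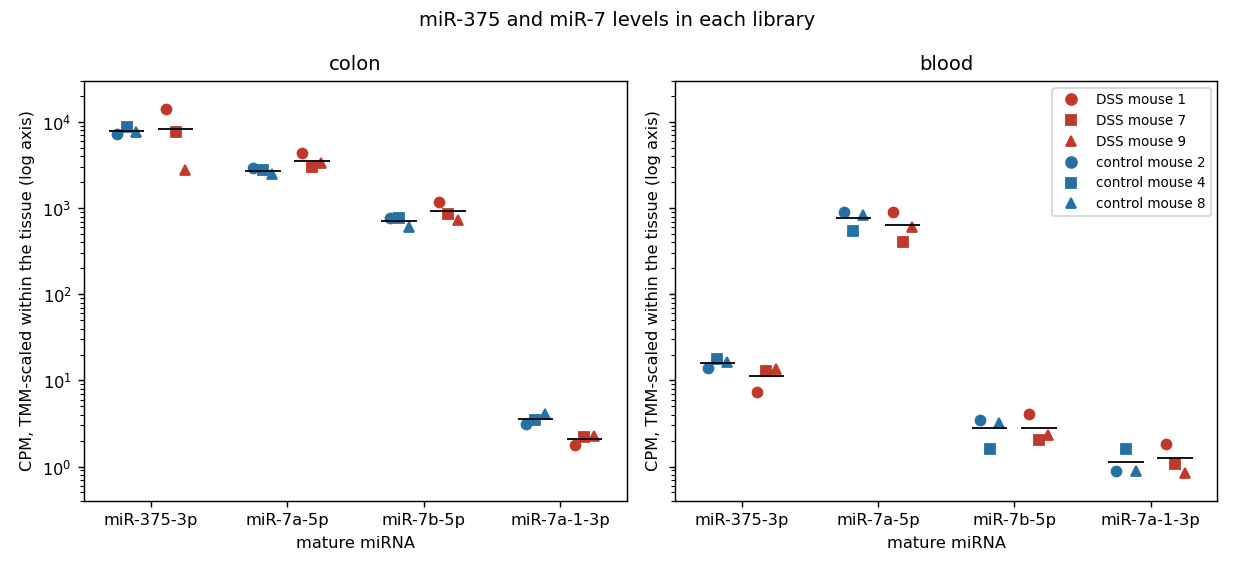
Level of each miRNA in each library, in CPM on a log axis, with colon on the left and blood on the right. Points are mice, coloured by treatment, and horizontal bars are group means (n = 3); miR-375-3p in the DSS colon libraries spreads from 2753 to 14370 CPM, around control libraries at 7330 to 8830 CPM.

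miR-375-3p was present in colon at 14370, 7780 and 2753 CPM in DSS mice 1, 7 and 9, and at 7330, 8830 and 7763 CPM in control mice 2, 4 and 8. DSS mouse 1 stood above all controls, mouse 9 below all controls and mouse 7 among them, so the groups overlapped. The DSS mean was 8301 ± 5826 CPM and the control mean 7974 ± 772 CPM (SD, n = 3). The log2 fold change was 0.06 (SE 0.51, edgeR adjusted p = 0.941), with no difference detectable over a spread in which the highest DSS library held 5.22 times the level of the lowest. Its direction turned with single mice: without mouse 1 the log2 fold change was -0.62, and without mouse 9 it was 0.47. Under the labels' grouping it was 0.74 (edgeR adjusted p = 0.991).

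The spread of miR-375-3p among the DSS colons ran in the same order as the epithelial miRNAs. Their summed level was 121852, 72076 and 52900 CPM in DSS mice 1, 7 and 9. The summed level of 6 leukocyte miRNAs ran in the opposite order, at 1382, 1975 and 2575 CPM. Control mice had 155682 to 195332 CPM of the epithelial and 902 to 1282 CPM of the leukocyte miRNAs. Neither sum overlapped between the groups, whereas miR-375-3p did, and 38.6% of all 542 miRNAs tested singly did not overlap. Abundant members weigh most in these sums, such as miR-192-5p at 83335 CPM and miR-146a-5p at 708 CPM on average in control mice. The TMM factor was also highest in mouse 9, at 1.29 against 0.879 to 1.04 in the other 5 colon libraries. The part of cell content in these values was not tested, and in whole tissue fewer cells of a type and less RNA per cell cannot be told apart.

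miR-375-5p, the partner strand from the same hairpin, had 0 counts in all 12 libraries. A count of 0 allows up to 3 counts per library (a one-sided 95% limit), or 0.0911 to 0.199 CPM on total counts. Against that limit miR-375-3p was at least 23707-fold higher in each colon library and at least 96.3-fold higher in each blood library. miR-375-5p was therefore not detectable at this depth in either tissue, and no ratio between the strands could be formed.

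miR-7a-5p, the main strand of Mir7-1 and Mir7-2, reached 4353, 3035 and 3326 CPM in the colon of DSS mice 1, 7 and 9, and 2894, 2747 and 2498 CPM in control mice 2, 4 and 8. Every DSS library was above every control library. The means were 3571 ± 692 and 2713 ± 200 CPM (SD, n = 3), a log2 fold change of 0.40 (SE 0.16). The difference did not reach the threshold (edgeR unadjusted p = 0.0464, adjusted p = 0.154), and over the alternatives other than the labels' grouping the adjusted p ranged from 0.0617 to 0.637. Under the labels' grouping the log2 fold change was 0.17 (edgeR adjusted p = 0.991).

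miR-7b-5p, which shares the miR-7a-5p seed, had 1167, 862 and 728 CPM in the colon of DSS mice 1, 7 and 9, and 775, 770 and 603 CPM in control mice 2, 4 and 8. DSS mice 1 and 7 were above the controls and mouse 9 lay among them, although on total counts alone the groups did not overlap. The log2 fold change was 0.36 (SE 0.20, edgeR adjusted p = 0.261), and under the labels' grouping it was 0.31 (edgeR adjusted p = 0.991). Without mouse 1 the log2 fold change in colon was 0.14 for miR-7b-5p and 0.22 for miR-7a-5p, and without mouse 8 it was 0.23 for miR-7b-5p.

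miR-7a-1-3p, the partner strand from Mir7-1, was rare in colon. It had 25, 39 and 58 counts in DSS mice 1, 7 and 9, and 47, 57 and 65 counts in control mice 2, 4 and 8. On the CPM scale these were 1.79, 2.20 and 2.24 against 3.13, 3.44 and 4.07, so all DSS libraries were below all control libraries. The log2 fold change was -0.76 (SE 0.22, edgeR unadjusted p = 0.00945, adjusted p = 0.0683; DESeq2 adjusted p = 0.0727), which did not reach the threshold. It passed in a single alternative, with miRNAs of at least 10 counts in every library (log2 fold change -0.81, edgeR adjusted p = 0.0454). On total counts alone it was -0.52 (edgeR adjusted p = 0.258), and under the labels' grouping it was -0.02 (edgeR adjusted p = 0.994). Counting error was wide at this depth: the exact two-sided 95% Poisson interval was 16.2 to 36.9 for the 25 counts of DSS mouse 1 and 50.2 to 82.8 for the 65 counts of control mouse 8, and covers counting error only.

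In colon, 0 of 4 tested members were SDE with edgeR and 0 of 4 with DESeq2, against 10.1% and 13.7% of all miRNAs tested by these tools. Of all miRNAs, edgeR called 0 in colon without mouse 2, 4, 7 or 8. At an unadjusted edgeR p under 0.05 there were 2 of 4, miR-7a-5p and miR-7a-1-3p, against 31.4% of all 542 miRNAs. The same 2 of 4 had groups that did not overlap, as did 38.6% of all miRNAs tested. Scaling with total counts alone moved the median log2 fold change of all tested miRNAs in colon from 0.04 to 0.26. Relative to that median, miR-7a-5p moved from 0.35 to 0.34 and miR-7a-1-3p from -0.81 to -0.78. A change of library factors shifts the median and each miRNA nearly alike, so these relative values are no check of the scaling.

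**Figure D2:**
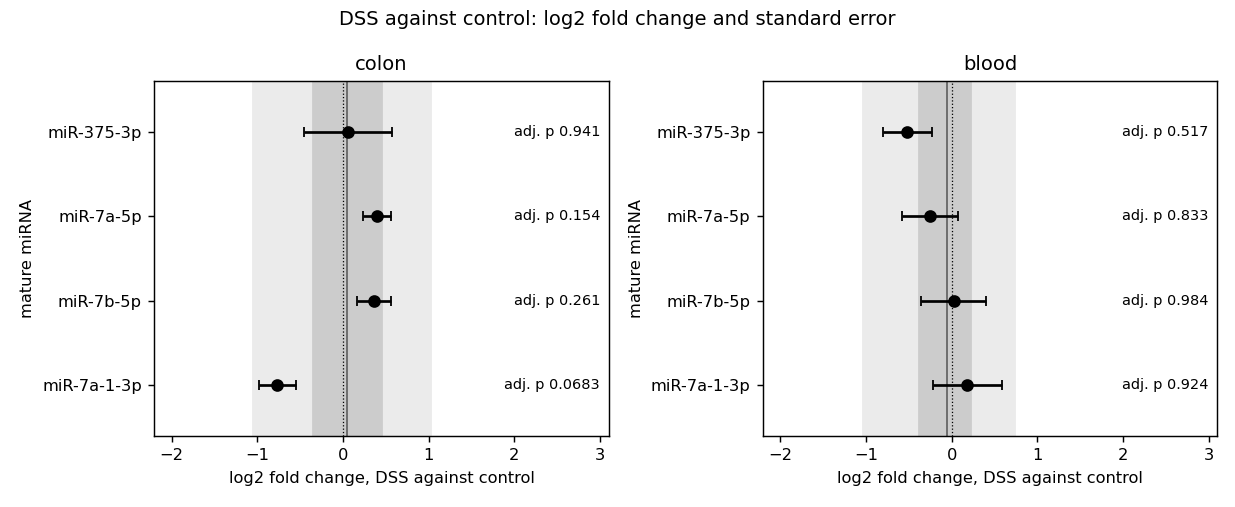
Log2 fold change of DSS against control (horizontal axis) of each miRNA in colon (left) and blood (right), with bars of 1 standard error and the edgeR adjusted p. The dark and light bands run from the lower to the upper quartile and from the 5th to the 95th percentile of all tested miRNAs (542 in colon, 484 in blood), and the grey line is their median; in colon miR-7a-5p at 0.40 and miR-7a-1-3p at -0.76 lie on opposite sides of 0.

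The strands of miR-7a were also compared within each colon library, which needs no scaling. The ratio of miR-7a-5p to miR-7a-1-3p counts was 2430, 1380 and 1482 in DSS mice 1, 7 and 9, and 924, 798 and 613 in control mice 2, 4 and 8. All DSS ratios were above all control ratios, and the mean was 2.22-fold higher in DSS mice (1.15 on the log2 scale). With 3 mice against 3 the exact two-sided permutation p was 0.1, the smallest this design allows (adjusted p = 0.167 over 5 ratios), so the difference could not pass a threshold of 0.05. Under the labels' grouping the log2 difference was 0.17 (exact permutation p = 0.9). miR-7a-5p comes from both Mir7-1 and Mir7-2 and miR-7a-1-3p from Mir7-1 alone. Of the 3p counts of these genes in colon, 291 of 315 were miR-7a-1-3p (92.4%, exact 95% binomial interval 88.9 to 95.1%), and in blood 198 of 198 were.

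The ratio of miR-7a-5p to miR-7b-5p varied little in colon. It was 3.73, 3.52 and 4.57 in DSS mice 1, 7 and 9, and 3.73, 3.57 and 4.15 in control mice 2, 4 and 8. The groups overlapped, and the mean log2 difference was 0.04 (exact permutation p = 0.9). miR-7b-5p was 18.0 to 22.1% of the summed counts of both miRNAs with the GGAAGAC seed.

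The ratio of miR-375-3p to miR-7a-5p in colon was 3.30 and 2.56 in DSS mice 1 and 7 and 0.828 in DSS mouse 9, against 2.53, 3.21 and 3.11 in control mice 2, 4 and 8. DSS mouse 9 was the single colon library with less miR-375-3p than miR-7a-5p. The mean log2 difference was -0.62 (exact permutation p = 0.7), and without mouse 9 it was -0.01.

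The epithelial miRNAs used for reference were the miR-200 family, which maintains epithelial identity, and miR-192, miR-194 and miR-215, which are typical of the intestinal epithelium. All 8 had a log2 fold change below 0 in colon, with a median of -1.08 beside 0.04 for all 542 miRNAs tested, and 4 were SDE and lower. These were miR-141-3p (-1.17), miR-429-3p (-0.98), miR-192-5p (-1.29) and miR-194-5p (-1.08). The count of SDE members depended on scaling, with 1 of 8 under relative log expression (RLE) or upper-quartile factors, 5 of 8 on total counts alone and between 0 and 8 when 1 mouse was left out (0 without mouse 2, 4, 7 or 8). The median stayed below 0 in those fits, and under the labels' grouping it was 0.67.

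Relative to the geometric mean of these 8 miRNAs, miR-375-3p was at 2.85, 2.42 and 1.17 in the colon of DSS mice 1, 7 and 9, and at 1.11, 1.07 and 1.11 in control mice 2, 4 and 8. The control ratios lay close together, and all DSS ratios were above them, mouse 9 by little. The mean was 1.83-fold higher in DSS mice (exact permutation p = 0.1, the smallest possible, adjusted p = 0.167). The reference miRNAs had a median log2 fold change of -1.08, beside 0.04 for all 542 miRNAs tested. A miRNA of unchanged level would therefore also rise against them, and how many did was not counted. With the median of the epithelial miRNAs in place of the geometric mean the groups overlapped (log2 difference 0.77, exact permutation p = 0.4), and with the miR-200 family alone it was 0.87 (exact permutation p = 0.1).

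miR-7a-5p relative to the same 8 miRNAs was at 0.862, 0.944 and 1.42 in DSS mice 1, 7 and 9, and at 0.437, 0.334 and 0.358 in control mice 2, 4 and 8. All DSS ratios were above all control ratios by a wide margin, with a mean 2.81-fold higher (exact permutation p = 0.1, adjusted p = 0.167). The lower level of the reference miRNAs in DSS mice enters this ratio too, and the same ratio was not computed for all other miRNAs. With the median or the miR-200 family as reference the log2 difference was 1.39 and 1.48, beside 1.49 with the geometric mean. Under the labels' grouping it was -0.64 (exact permutation p = 0.4), and the miR-375-3p difference was 0.03 (exact permutation p = 1).

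**Figure D3:**
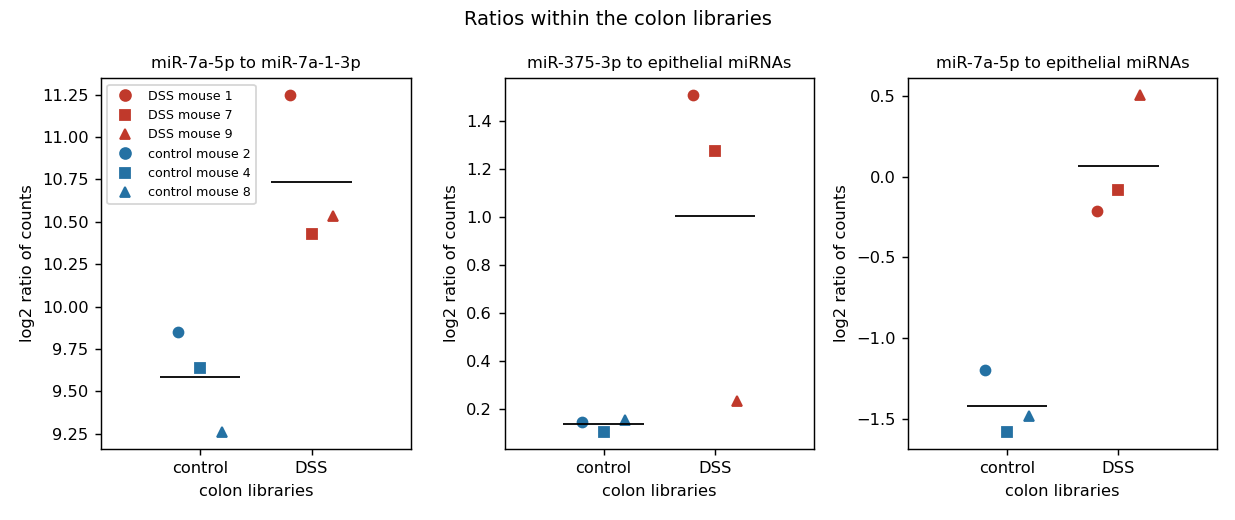
Log2 ratios of counts within each colon library: miR-7a-5p to miR-7a-1-3p, miR-375-3p to the geometric mean of 8 epithelial miRNAs, and miR-7a-5p to the same reference. Points are mice and bars are group means (n = 3). The DSS mice lie above the control mice in each panel, by the least for miR-375-3p in mouse 9 (0.23 against a highest control of 0.15). All 8 epithelial miRNAs of the reference had a log2 fold change below 0.

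Other miRNAs known from neurons and endocrine or sensory cells gave no common direction in colon. Of 16 on that list 11 were tested, with a median log2 fold change of 0.53, and 3 were SDE and higher and 3 SDE and lower. The higher ones were miR-132-3p (1.55), miR-212-3p (1.89), which are made from a single precursor cluster induced by neuronal activity and also active in immune cells, and miR-129-5p (0.66). The lower ones were miR-182-5p (-1.29), miR-183-5p (-1.10) and miR-96-5p (-1.07), the sensory-organ cluster, which is also made in epithelia. Under RLE or upper-quartile factors 1 was SDE and higher and 2 SDE and lower, and with 1 mouse left out the counts were between 0 and 3 in each direction (0 without mouse 2, 4, 7 or 8). The partner strands were at the edge of detection, with 3 to 5 counts of miR-7a-2-3p and 0 to 3 of miR-7b-3p per colon library.

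Of the 6 leukocyte miRNAs in colon, 3 were SDE and higher, namely the myeloid miR-223-3p (1.93), and miR-155-5p (1.29) and miR-146a-5p (0.83), regulators of inflammatory signalling. The list's median was 1.17, and 0 of its members were SDE under RLE or upper-quartile factors or without mouse 2, 4, 7 or 8. Under the labels' grouping the median was -1.03, and that of the neuronal and endocrine list was -0.09. For the 6 smooth muscle and stromal miRNAs, 0 were SDE and the median was -0.18, and for the erythroid miRNAs 0 of 3 tested were SDE and the median was 0.09. These lists were not tested as sets.

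Over the 6 colon libraries, the miRNAs whose level ran most like miR-375-3p were miR-139-3p (Pearson r = 0.995), miR-193b-5p (0.970), miR-205-5p (0.934), miR-139-5p (0.919) and miR-378a-3p (0.912), among 541 compared on log2(CPM + 1). Without DSS mice 1 and 9, the libraries farthest from the median of miR-375-3p, r over the 4 remaining libraries was 0.991 for miR-139-3p, 0.662 for miR-193b-5p, 0.113 for miR-205-5p, 0.865 for miR-139-5p and 0.376 for miR-378a-3p. For miR-205-5p, a miRNA of squamous and basal epithelia, the level in DSS mouse 9 was 6.58 CPM, against 51.9 to 177 CPM in the other colon libraries.

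The miRNAs most like miR-7a-5p were miR-450a-1-3p (r = 0.986), miR-540-3p (0.971), miR-3068-5p (0.965), miR-541-5p (0.963) and miR-137-3p (0.950). Without DSS mouse 1 and control mouse 8, the libraries farthest from the median of miR-7a-5p, r was 0.999, 0.981, 0.764, 0.906 and 0.969 in that order. None of these 5 was among the 5 most like miR-375-3p, which says little where 5 are picked from 541. With 6 libraries and 541 miRNAs compared, high r values can arise without a relation, and r was not tested. All values share the library's scaling factor, and miR-450a-1-3p was at 0.376 to 1.22 CPM, where single reads weigh.

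In blood, miR-375-3p was a low-level miRNA, with 289, 395 and 291 counts in DSS mice 1, 7 and 9, and 311, 305 and 484 counts in control mice 2, 4 and 8. After TMM scaling the levels were 7.27, 12.7 and 13.4 CPM in the DSS libraries, against 14.0, 17.6 and 16.4 CPM in the control libraries. All DSS libraries were below all control libraries, with mouse 1 lowest, but on total counts alone the groups overlapped, at 9.65 to 13.8 against 12.4 to 19.7 CPM. The log2 fold change was -0.52 (SE 0.29, edgeR adjusted p = 0.517), which did not reach the threshold, and it was -0.14 under the labels' grouping (edgeR adjusted p = 0.955). With 1 mouse left out it ranged from -0.63 to -0.24, the latter without mouse 1.

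miR-7a-5p was at 900, 407 and 612 CPM in the blood of DSS mice 1, 7 and 9, and at 912, 548 and 826 CPM in control mice 2, 4 and 8. The groups overlapped, with a log2 fold change of -0.25 (SE 0.33, edgeR adjusted p = 0.833). On total counts alone the log2 fold change was 0.0027, and under the labels' grouping it was 0.35 (edgeR adjusted p = 0.950).

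miR-7b-5p had 163, 63 and 51 counts in the blood of DSS mice 1, 7 and 9, and 78, 28 and 95 counts in control mice 2, 4 and 8. miR-7a-1-3p had 73, 33 and 18 counts against 20, 28 and 26. DSS mouse 1 had the most of both, and the groups overlapped for both. The log2 fold changes were 0.02 (SE 0.38, edgeR adjusted p = 0.984) for miR-7b-5p and 0.18 (SE 0.40, edgeR adjusted p = 0.924) for miR-7a-1-3p. Without mouse 1 they turned to -0.30 and -0.16, and without mouse 4 that of miR-7b-5p turned to -0.18. Under the labels' grouping they were 0.29 and 0.65 (edgeR adjusted p = 0.950 for both).

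In blood, edgeR called 0 of 4 members, as it called 0% of all 484 miRNAs tested. At an unadjusted edgeR p under 0.05 there were 0 of 4 members and 56 of 484 miRNAs (11.6%), and DESeq2 called 0 of the 3 members it gave an adjusted p and 10 of 295 miRNAs (3.39%). The groups did not overlap for 1 of 4 members, miR-375-3p, against 17.4% of all miRNAs tested. On each of the lists of neuronal and endocrine, epithelial, smooth muscle and stromal, leukocyte and erythroid miRNAs 0 were SDE in blood with edgeR after the filter on low counts. Without that filter edgeR called the leukocyte miR-223-3p as higher (adjusted p = 0.00194) and the stromal miR-214-3p as lower (adjusted p = 0.0367). DESeq2 called miR-223-3p as higher (adjusted p = 0.00339) and the epithelial miR-215-5p as lower (adjusted p = 0.0485). The erythroid miRNAs summed to 287255 to 429320 CPM in the DSS and 319023 to 577392 CPM in the control blood libraries, and their part in these values was not tested. These sums carry the TMM factors, which ran from 0.734 (control mouse 4) to 1.33 (DSS mouse 1) in blood, and are not shares of a library. Within the blood libraries the ratios of miR-7a-5p to miR-7b-5p, miR-7a-5p to miR-7a-1-3p and miR-375-3p to miR-7a-5p overlapped between DSS and control mice (exact permutation p = 0.2, 0.6 and 0.8).

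**Figure D4:**
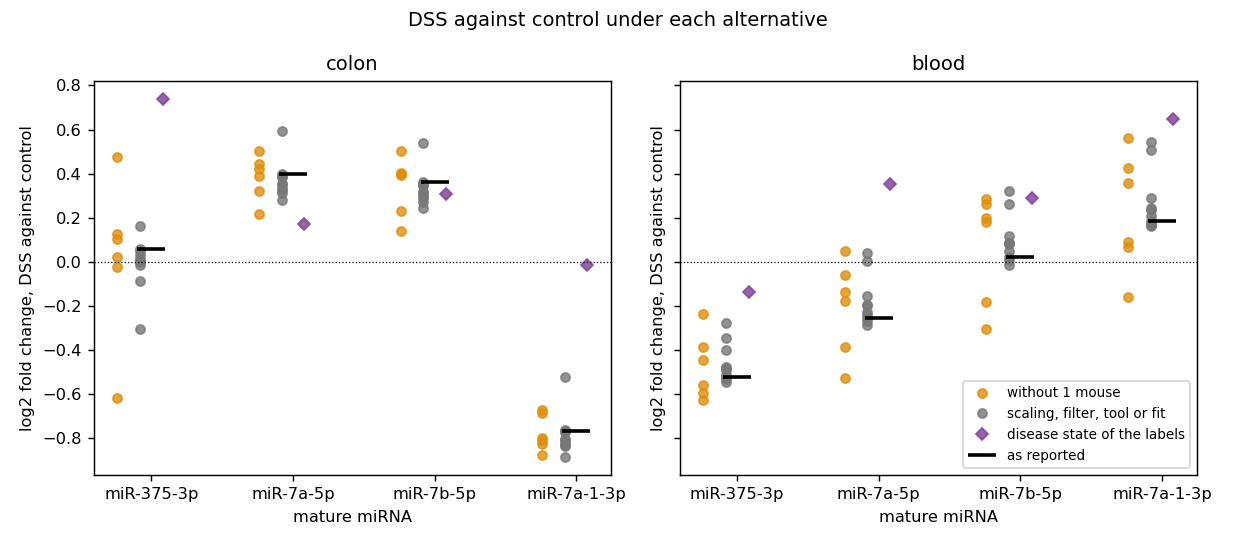
Log2 fold change of DSS against control (vertical axis) of each miRNA in colon and blood as reported (black bar), without 1 mouse in turn (orange), under another scaling, filter, tool or fit (grey) and with the disease state of the labels (purple). miR-7a-1-3p in colon stays between -0.88 and -0.52 except under the labels' grouping (-0.02), whereas miR-375-3p in colon lies on both sides of 0.

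Blood and colon were compared on counts of all libraries, to give each member's level in each tissue. On a scale common to all 12 libraries, miR-375-3p had 6255 ± 587 CPM in control colon and 18.9 ± 4.0 CPM in control blood (SD, n = 3), and 6317 ± 4373 against 15.6 ± 3.8 CPM in DSS mice. It was lower in blood in 6 of 6 mice, with a log2 fold change of -8.37 (SE 0.58, edgeR adjusted p = 4.61e-09) in control mice and -8.66 (SE 0.59, edgeR adjusted p = 3.16e-09) in DSS mice. With upper-quartile factors these were -7.09 and -7.45, on total counts alone -8.95 and -9.46, and without mouse 1 the value in DSS mice was -7.88. miR-7b-5p had 563 ± 84 CPM in control colon and 3.36 ± 1.50 CPM in control blood. It too was lower in blood in 6 of 6 mice, by -7.38 (SE 0.51) in control mice and -7.37 (SE 0.51) in DSS mice, by -6.14 and -6.27 with upper-quartile factors, and by -7.94 and -8.22 on total counts alone. Blood and colon RNA were extracted with different kits, and tissue and kit cannot be told apart.

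miR-7a-5p differed much less between the tissues, with 2130 ± 187 CPM in control colon against 912 ± 307 CPM in control blood (SD, n = 3). In DSS mice the levels were 2718 ± 490 and 939 ± 484 CPM. The log2 fold change was -1.22 (SE 0.35, edgeR adjusted p = 0.00409) in control mice and -1.53 (SE 0.35, edgeR adjusted p = 0.000804) in DSS mice, with 6 of 6 mice lower in blood. The median of all 680 miRNAs tested was itself -1.14 in control mice and -0.70 in DSS mice, so relative to it miR-7a-5p was at -0.09 and -0.84. With upper-quartile factors the median moved to 0.11 in control mice and miR-7a-5p to 0.03 (edgeR adjusted p = 0.928), so its direction in control mice depended on the scaling. In DSS mice it was -0.42 with upper-quartile factors (edgeR adjusted p = 0.165), and the call was lost. On total counts alone it was -1.79 in control mice and -2.38 in DSS mice. Relative to the same median, miR-375-3p was at -7.23 and miR-7b-5p at -6.25 in control mice. Library factors shift all miRNAs nearly alike, so values relative to the median are no check of the scaling.

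miR-7a-1-3p had 2.78 ± 0.34 CPM in control colon and 1.30 ± 0.35 CPM in control blood, and 1.59 ± 0.21 against 1.88 ± 1.08 CPM in DSS mice. The log2 fold change of blood against colon was -1.10 (SE 0.39, edgeR adjusted p = 0.0170) in control mice and 0.25 (SE 0.39, edgeR adjusted p = 0.551) in DSS mice. The call in control mice was lost without mouse 2 or mouse 8 (edgeR adjusted p = 0.0690 and 0.0509) and under RLE factors (edgeR adjusted p = 0.0669). It was lower in blood in 5 of 6 mice (exact permutation p = 0.147 over all 12 libraries), against an exact p of 0.00216, the smallest 6 against 6 libraries can give, for each of the other 3. Within mice the exact sign-flip p was 0.219 for miR-7a-1-3p and 0.0312, the smallest possible, for each of the other 3. With upper-quartile factors the values were 0.19 in control mice and 1.32 in DSS mice, and on total counts alone -1.70 and -0.67. Relative to the median of all miRNAs it was at 0.04 in control mice and 0.94 in DSS mice, and at 0.08 and 0.93 with upper-quartile factors.

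With the mouse number as a block the same members were SDE in each tissue comparison as without it. In all, 4 of 4 members were SDE and lower in blood in control mice, against 50.7% of all miRNAs tested, and 3 of 4 in DSS mice, against 47.4%. The difference of the DSS effect between the tissues was not SDE for 4 of 4 members, nor for the other miRNAs tested (0% of 680 with edgeR). At an unadjusted p under 0.05 it included 1 of 4, miR-7a-1-3p (1.35, SE 0.55, edgeR adjusted p = 0.300), against 13.8% of all miRNAs. That value was 0.86 under RLE factors and ranged from 0.69 (without mouse 1) to 1.75 with 1 mouse left out.

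The members' proportions separated the tissues without any scaling. The ratio of miR-7a-5p to miR-7b-5p was 3.52 to 4.57 in the 6 colon libraries and 201 to 340 in the 6 blood libraries, so miR-7b-5p made up 0.293 to 0.496% of the counts with the GGAAGAC seed in blood. The ratio was higher in blood in 6 of 6 mice, by 6.03 ± 0.29 on the log2 scale (SD). In blood it rested on 28 to 163 counts of miR-7b-5p beside 9517 to 35745 of miR-7a-5p, which differs by 1 base. Whether misread or misassigned miR-7a-5p reads reached that level was not tested. A ratio within a library does not remove a difference between the extraction kits. The ratio of miR-375-3p to miR-7a-5p was 0.828 to 3.30 in colon and 0.00809 to 0.0320 in blood, lower in blood in 6 of 6 mice. Both gave an exact permutation p of 0.00216 (adjusted p = 0.00325 over 3 ratios), the smallest possible, in a comparison added after the values were seen. That test treats the 12 libraries as separate, and an exact sign-flip test within the 6 mice gave p = 0.0312 for both, its smallest possible value. The ratio of miR-7a-5p to miR-7a-1-3p was 613 to 2430 in colon and 340 to 1015 in blood, with overlap, and was lower in blood in 4 of 6 mice. The exact permutation p was 0.0476 over libraries and 0.125 by the exact sign-flip test within mice, which did not pass 0.05.

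**Figure D5:**
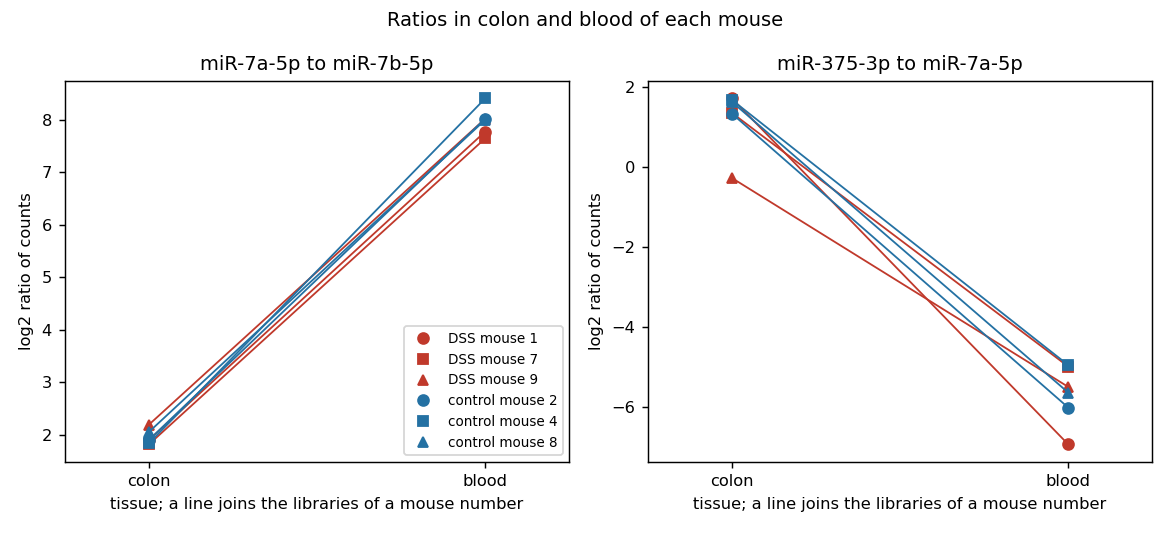
Log2 ratios of counts (vertical axis) of miR-7a-5p to miR-7b-5p and of miR-375-3p to miR-7a-5p in colon and blood, with a line joining the libraries of each mouse number. In 6 of 6 mice the first ratio is higher in blood (201 to 340 against 3.52 to 4.57 as linear ratios) and the second is lower (0.00809 to 0.0320 against 0.828 to 3.30).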

How the data were processed

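Small RNA libraries from colon and blood of 3 DSS and 3 control mice were analysed (12 libraries, separate mice as replicates), and total RNA was not analysed here. The authors trimmed reads with Flexbar, collapsed them with fastx-toolkit and counted them on miRBase version 22 mature miRNAs with the miRDeep2 quantifier, and deposited raw counts. They also deposited a normalized signal per tissue, each count divided by a DESeq2 size factor. No molecular identifiers were named, so intervals and floors cover counting error only. How shared reads of miR-7a-5p and miR-7b-5p were assigned was left to the quantifier and was not tested.

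Counts were tested in R (4.3.3) with edgeR (4.0.16): filterByExpr, TMM factors, glmQLFit and glmQLFTest, per tissue without covariates, and in all 12 libraries together for blood against colon and the interaction. The adjusted p threshold was 0.05 and the fold threshold 1.5. Standard errors were derived from the F statistic of each test. Ratios of counts were compared by exact two-sided permutation tests. Alternatives were RLE, upper-quartile and no factors, no filter or at least 10 counts in every library, identical sequences once (1968 of 1978 rows), robust dispersion, DESeq2 (1.42.0), limma (3.58.1) on the deposited signal as log2(value + 1), 1 joint fit, each mouse left out, the mouse as a block and the labels' disease state. The edgeR, DESeq2 and limma scripts were tested on simulated data.

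Named miRNAs were the 5 members, SDE members of the marker lists, and the 5 most like miR-375-3p and miR-7a-5p by Pearson r, with partner strands given by counts. The members and lists were chosen with earlier results of these data known. Libraries of a mouse number were taken as the same animal in both tissues. The correlation of their deviations from the group means over 680 miRNAs was -0.24 to 0.10.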

Additional observations from a re-analysis of the deposited data

How the results depend on the processing

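Of 395 recomputed values, 351 kept their direction and their side of the threshold (or stayed within 1.5 times a count). Values are log2 unless named, and the cause of each shift was not tested. In colon, miR-375-3p turned to -0.0013 (RLE factors), -0.088 (upper-quartile factors), -0.014 (DESeq2) and -0.31 (limma on the deposited signal), and ranged from -0.62 to 0.47 with 1 mouse left out. miR-7a-1-3p passed with at least 10 counts in every library (-0.81), which made 1 member called. All SDE miRNAs in colon numbered 55 as reported, 16 under RLE factors, 8 under upper-quartile factors, 47 on total counts, 37 without mouse 9, 44 without mouse 1, and 0 without mouse 2, 4, 7 or 8, under the labels' grouping and in the joint fit; DESeq2 called 74 and limma 37.

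In blood, miR-7a-5p turned to 0.0027 (total counts), 0.35 (labels' grouping) and 0.041 (joint fit), with -0.52 to 0.051 when a mouse was left out. miR-7b-5p turned to -0.013 with at least 10 counts in every library, with -0.30 to 0.28 without a mouse, and miR-7a-1-3p ranged from -0.16 to 0.56.

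The mouse as a replicate block turned the difference of the DSS effect between tissues to 0.0024 for miR-375-3p and -0.0079 for miR-7b-5p, neither called, and changed no call of a member. Of all miRNAs tested (680 as reported), 0 were called for this difference as reported, 8 under RLE factors, 2 without mouse 1 and 1 with the block, and 27 of 1405 with no filter. Without a mouse the former ranged from -0.66 to 0.49 and the latter from -0.35 to 0.25, and the latter was -0.43 (RLE), -0.14 (upper-quartile), -0.28 (total counts) and -0.091 (no filter).

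For blood against colon in control mice, upper-quartile factors gave 0.028 for miR-7a-5p and 0.19 for miR-7a-1-3p and left 2 members called. miR-7a-1-3p missed the threshold under RLE factors (-0.75) and without mouse 2 or 8, ranging from -1.36 to -1.06, with 3 to 4 members called. In DSS mice, upper-quartile factors gave -0.42 for miR-7a-5p, no longer called, and 1.32 for miR-7a-1-3p, called as higher. miR-7a-1-3p was -0.67 on total counts and -0.046 with no filter, and ranged from -0.41 to 0.61 without a mouse.

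The ratio of miR-7a-5p to miR-7b-5p in colon was -0.071 to 0.12 without a mouse and -0.14 under the labels' grouping. That grouping also turned miR-7a-5p to epithelial miRNAs (-0.64) and miR-375-3p to miR-7a-5p (0.68) in colon, and miR-7a-5p to miR-7b-5p in blood (0.18). miR-375-3p to miR-7a-5p in blood ranged from -0.68 to 0.29 without a mouse.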
